A study of Mus musculus with 12 samples.

Results

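Exosomes are small vesicles that form when the membrane of a late endosome buds inward and the resulting multivesicular body fuses with the cell surface. Budding can run through the ESCRT complexes, which sort ubiquitinated cargo and cut the neck of the bud, through the adaptor syntenin, which ties syndecan tails to the ESCRT partner ALIX, or through tetraspanins and ceramide. Rab GTPases and SNARE proteins then carry, dock and fuse the multivesicular body, and tubule epithelium is a known source of the exosomes found in urine. The genes described here are 40 listed genes of this machinery, chosen by symbol and placed in 10 steps. Of these, 39 had a row among the 56748 genes of the deposited table, and Vamp7, a SNARE of late endosomes, was not analysed here. Of the 39, 36 reached a mean of at least 1 FPKM (fragments scaled to gene length and sequencing depth) over the 12 libraries and were tested, and Vps25, Smpd3 and Rab27b did not.

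The study crossed genotype with surgery in male mice aged 8 to 12 weeks, with 3 whole-kidney RNA libraries in each of 4 groups. In cKO mice Krt20, a keratin gene, was deleted in renal proximal tubular cells. No source used here gives the Cre driver or the deleted exons. The groups are cKO IR, WT IR, cKO sham and WT sham. In ischemia/reperfusion (IR) both renal pedicles were clamped for 30 min under pentobarbital and the kidneys were taken 24 h after release, and sham mice had the same operation with no clamp. Since no label ties a library to its own animal, p-values measure only the spread between these libraries, which may be technical. In whole-kidney RNA, fewer cells of a type and less RNA per cell cannot be told apart.

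The libraries held 13187531 to 15962303 reads each. Kidney markers were abundant, with Lrp2 of the proximal tubule at 60.5 to 267 FPKM and Umod of the thick limb at 347 to 1270 FPKM. The extraction text of the labels speaks of retinas, although kidney is the tissue given for each library. In cKO IR, Krt20 had 28.2, 35.6 and 47.01 FPKM, against 83.95, 64.9 and 59.9 FPKM in WT IR (exact permutation test, two-sided p = 0.1, the smallest that 3 against 3 allows), and at most 0.0343 FPKM in cKO sham and 0.157 FPKM in WT sham. Prdx2, the peroxiredoxin of the study's title, had 49.1, 46.1 and 41.9 FPKM in cKO IR, against 41.2, 46.6 and 39.2 FPKM in WT IR (exact p = 0.3). In sham it had 44.2, 42.7 and 44.15 FPKM in cKO, against 45.2, 50.1 and 47.9 FPKM in WT (exact p = 0.1). WT IR 2 stood apart: on the first principal component of all tested genes it lay at -9.84, against -34.85 and -42.12 for the other WT IR libraries, -49.07 to -45.52 for cKO IR and 36.67 to 39.22 for the sham libraries.

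After IR more members rose than fell in both genotypes, and no member passed in a comparison of the genotypes. In cKO kidneys 22 of 36 members rose and 3 fell, where 27.8% of all 12868 tested genes rose and 23.1% fell. In WT kidneys 15 rose and 2 fell, where 22.6% of all tested genes rose and 19.5% fell. A member rose or fell where limma on log2(FPKM + 1) gave an adjusted p under 0.05 over all tested genes. The median log2 difference between IR and sham was 0.35 over the members in cKO and 0.02 over all tested genes. In WT it was 0.20 over the members and 0.01 over all tested genes. The 15 members that rose in WT all rose in cKO too, and Cd81 and Smpd1 fell in both. Tsg101, Chmp6, Sdc4, Cd82, Rab35, Ykt6 and Snap23 rose, and Rab27a fell, with a call in cKO and none in WT, and for none of these was the difference between the genotypes itself past the threshold. With library totals as the scaling Tsg101, Sdc4, Rab35, Ykt6 and Snap23 rose in WT too. So did Rab7, Vps28, Vps36 and Vta1 in WT, and Vps36, Vps4a, Vps4b and Vta1 in cKO, none of which passed as deposited. The comparisons of cKO with WT within IR and of IR with sham share their IR libraries. Without WT IR 2, 16 members rose and 3 fell in WT.

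**Figure D1:**
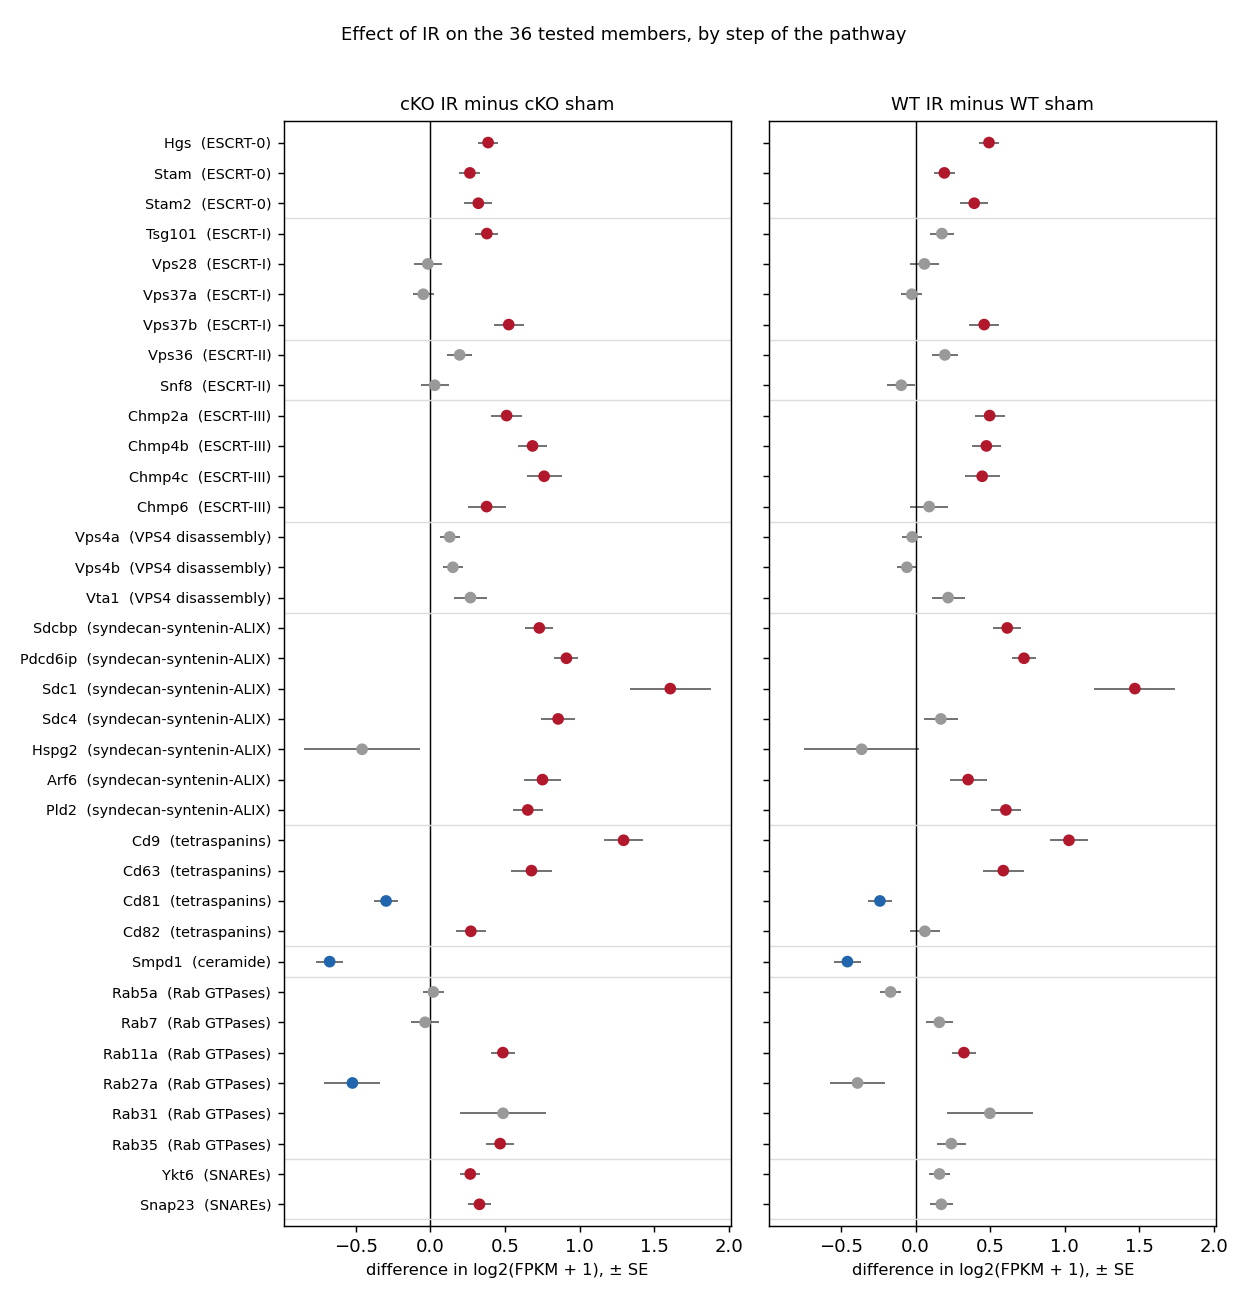
Log2 difference between IR and sham for the 36 tested members, ordered by step, in cKO (left) and WT (right). Points are limma estimates on log2(FPKM + 1), bars their SE, red points rose, blue points fell and grey points did not pass; 22 points are red in cKO and 15 in WT.

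Scaling moved the WT count. With FPKM recomputed from each library's own total of reads, 24 members rose and 1 fell in WT, where 32.3% of all tested genes rose and 14.3% fell, since that scaling set the median of all tested genes at 0.13 in WT, against 0.01 as deposited. In cKO the same scaling called 28 members, against 25 as deposited, where 30.8% of all tested genes rose and 20.9% fell. It set the median of all tested genes at 0.07 in cKO, against 0.02 as deposited. Markers of the tubule and of neutrophils moved with IR, though fewer genes of the collecting duct list passed. Collecting duct markers fell for 3 of 6 genes in cKO, and in WT 1 rose and 1 fell. Their summed FPKM was 154 to 157 in cKO IR and 161 to 212 in WT IR. It was 243 to 270 in cKO sham and 237 to 245 in WT sham. Proximal tubule markers fell for 8 of 9 genes in both genotypes, and their summed FPKM was 565 to 931 in cKO IR and 867 to 2050 in WT IR, against 3151 to 4136 in cKO sham and 3533 to 4150 in WT sham. The sum of 2050 was that of WT IR 2, with 1162 in WT IR 1 and 867 in WT IR 3. Injured tubule markers rose for 7 of 8 genes in cKO and 8 of 8 in WT, with sums of 13332 to 14830 in cKO IR and 6549 to 11399 in WT IR, against 781 to 870 in cKO sham and 433 to 470 in WT sham. Here too WT IR 2 stood apart, at 6549, with 11399 in WT IR 1 and 11224 in WT IR 3. Thick limb and distal tubule markers fell for 6 of 6 genes in cKO and 5 of 6 in WT, with sums of 452 to 720 in cKO IR and 602 to 1048 in WT IR, against 1310 to 1913 in cKO sham and 1452 to 1584 in WT sham. The sum of 1048 was again that of WT IR 2, with 655 in WT IR 1 and 602 in WT IR 3. Neutrophil markers rose for 4 of 4 tested genes of 5 in cKO and 3 of 4 in WT, with sums of 17.7 to 26.1 in cKO IR and 10.8 to 52.0 in WT IR, against 2.59 to 3.08 in cKO sham and 1.74 to 2.48 in WT sham. No marker of these lists was at 0 in every library, and the part of these shifts in the members' changes was not tested.

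Of the 7 tested members of the syndecan, syntenin and ALIX route, 6 rose in cKO and 5 in WT, and 0 fell. Pdcd6ip (ENSMUSG00000032504) encodes ALIX, which binds syntenin and recruits ESCRT-III to the bud. Pdcd6ip stood at 54.1, 55.4 and 51.1 FPKM in cKO IR, against 27.8, 27.5 and 28.7 FPKM in cKO sham. In WT, Pdcd6ip was at 49.1, 40.6 and 47.5 FPKM after IR, against 27.5, 25.8 and 28.2 FPKM after sham. Every IR library lay above every sham library, and every cKO IR library above every WT IR library. The log2 difference between IR and sham was 0.91 ± 0.080 (SE) in cKO (adjusted p = 1.56e-05) and 0.73 ± 0.080 in WT (adjusted p = 0.000108). The transcript starts of Pdcd6ip and of Rab5a are shown because both hold CACGTG, while Pdcd6ip rose in both genotypes, and Rab5a, described with the other Rab genes, did not pass in either. RefSeq windows for GRCm38.p6, from 250 bases before to 50 bases after the gene start, were matched for 29 of the 40 symbols and searched on both strands for CACGTG (E-box), TGANTCA (AP-1) and TGACNNNGC (the core of the antioxidant response element). Capitals mark matches. The Pdcd6ip window is chr9:113708210-113708509, minus strand, and the Rab5a window is chr17:53478984-53479283, plus strand, both printed 5′ to 3′ along the gene.
Pdcd6ip: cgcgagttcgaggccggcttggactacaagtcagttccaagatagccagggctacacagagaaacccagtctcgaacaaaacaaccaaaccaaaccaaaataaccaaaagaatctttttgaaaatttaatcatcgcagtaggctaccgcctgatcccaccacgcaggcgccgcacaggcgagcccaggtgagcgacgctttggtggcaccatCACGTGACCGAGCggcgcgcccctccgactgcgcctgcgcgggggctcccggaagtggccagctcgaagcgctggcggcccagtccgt
Rab5a: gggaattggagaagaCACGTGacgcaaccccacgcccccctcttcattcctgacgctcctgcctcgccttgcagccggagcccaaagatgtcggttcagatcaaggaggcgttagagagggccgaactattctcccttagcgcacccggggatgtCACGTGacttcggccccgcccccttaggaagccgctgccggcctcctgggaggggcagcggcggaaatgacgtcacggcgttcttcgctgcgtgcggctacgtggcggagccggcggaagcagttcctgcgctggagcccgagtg
In the Pdcd6ip window the CACGTG starts at position -38 from the gene start and overlaps by 2 bases a TGACNNNGC match that starts at -34. The Rab5a window holds CACGTG starting at positions -235 and -95 from the gene start. CACGTG was in 7.15% of all 32851 RefSeq windows and in those of 3 members, Pdcd6ip, Rab5a and Rab27a. TGACNNNGC was in 12.4% of all windows and in those of 6 members, Cd82, Pdcd6ip, Rab7, Tsg101, Vps25 and Vps4b. TGANTCA was in 7.81% of all windows and in none of the 29 members. These are matches of letters and not binding sites.

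Sdcbp (ENSMUSG00000028249) encodes syntenin. After IR, Sdcbp stood at 31.7, 29.4 and 30.8 FPKM in cKO and 26.8, 23.5 and 30.97 FPKM in WT, against 17.9, 17.8 and 18.5 FPKM in cKO sham and 16.6, 16.6 and 18.5 FPKM in WT sham. All IR libraries lay above all sham libraries. In log2 terms IR minus sham came to 0.73 ± 0.093 in cKO (adjusted p = 0.00012) and to 0.61 ± 0.093 in WT (adjusted p = 0.0006). Of the syndecans among the members, whose tails syntenin binds, Sdc1 rose in both genotypes and Sdc4 in cKO. Sdc2, a syndecan that is not a member, averaged 19.8 FPKM in cKO IR, against 33.2 FPKM in cKO sham. In WT, its mean was 24.7 FPKM after IR, against 38.0 FPKM after sham. In each genotype the Sdc2 IR libraries lay below the sham libraries. Of 3 tested genes of this route that are not members, Sdc2, Sdc3 and Pld1, 0 rose, while 2 fell in cKO and 1 in WT. Sdc1 (ENSMUSG00000020592), the syndecan of epithelia and plasma cells, had the largest log2 difference of any member in both genotypes. Levels of Sdc1 were 10.7, 12.6 and 19.8 FPKM in cKO IR, against 3.59, 3.68 and 4.45 FPKM in cKO sham. They were 12.4, 6.90 and 16.5 FPKM in WT IR, against 3.23, 4.03 and 3.11 FPKM in WT sham. The IR and sham libraries did not overlap, but the IR libraries varied widely, with WT IR 2 the lowest of them. For Sdc1 the IR effect on the log2 scale was 1.61 ± 0.27 in cKO (adjusted p = 0.00068) and 1.47 ± 0.27 in WT (adjusted p = 0.00179). Sdc4 (ENSMUSG00000017009) is a syndecan of cell adhesions and was the most abundant member of this route. Sdc4 had 185, 215 and 187 FPKM in cKO IR and 159, 159 and 123 FPKM in WT IR, against 107, 109 and 106 FPKM in cKO sham and 118, 142 and 130 FPKM in WT sham. In cKO every IR library lay above every sham library, while in WT the ranges overlapped, with WT IR 3 below 2 of the WT sham libraries. This gave a log2 difference of 0.86 ± 0.12 in cKO (adjusted p = 0.000167) and 0.17 ± 0.12 in WT (adjusted p = 0.261). Without WT IR 3 the WT difference passed as well, with an adjusted p of 0.048, as it did with library totals.

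Arf6 is a small GTPase that activates phospholipase D and, with Pld2, controls syntenin exosomes. Arf6 stood at 69.1, 68.5 and 62.3 FPKM in cKO IR, against 40.6, 42.4 and 34.8 FPKM in cKO sham. In WT, Arf6 was at 53.1, 38.5 and 48.1 FPKM after IR, against 35.2, 33.03 and 39.9 FPKM after sham. All 3 cKO IR libraries lay above all others, while WT IR 2 lay within the range of the WT sham libraries. IR and sham differed by 0.75 ± 0.12 on the log2 scale in cKO (adjusted p = 0.000592) and by 0.35 ± 0.12 in WT (adjusted p = 0.0415). The WT call of Arf6 was lost without WT IR 1, without WT IR 3, without WT sham 1 and without WT sham 2, with adjusted p-values up to 0.155. Pld2, a phospholipase D that makes phosphatidic acid, was expressed at a low level. After IR, Pld2 stood at 2.75, 3.18 and 3.07 FPKM in cKO and 3.30, 2.53 and 3.04 FPKM in WT, against 1.74, 1.57 and 1.33 FPKM in cKO sham and 1.68, 1.65 and 1.45 FPKM in WT sham. The groups of IR and sham libraries did not overlap in either genotype. The log2 difference between IR and sham was 0.65 ± 0.10 (SE) in cKO (adjusted p = 0.000372) and 0.61 ± 0.10 in WT (adjusted p = 0.000968). Hspg2 encodes perlecan, a heparan sulfate proteoglycan of basement membranes. Levels of Hspg2 were 4.27, 5.18 and 14.5 FPKM in cKO IR, against 9.20, 11.1 and 9.55 FPKM in cKO sham. They were 6.50, 4.04 and 11.5 FPKM in WT IR, against 9.45, 8.13 and 9.48 FPKM in WT sham. Its IR libraries ranged on both sides of the sham libraries, with cKO IR 3 and WT IR 3 high. In log2 terms IR minus sham came to -0.46 ± 0.39 in cKO (adjusted p = 0.347) and to -0.36 ± 0.39 in WT (adjusted p = 0.481). Without cKO IR 3 it fell in cKO, by 0.94 on the log2 scale (adjusted p = 0.0243).

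**Figure D2:**
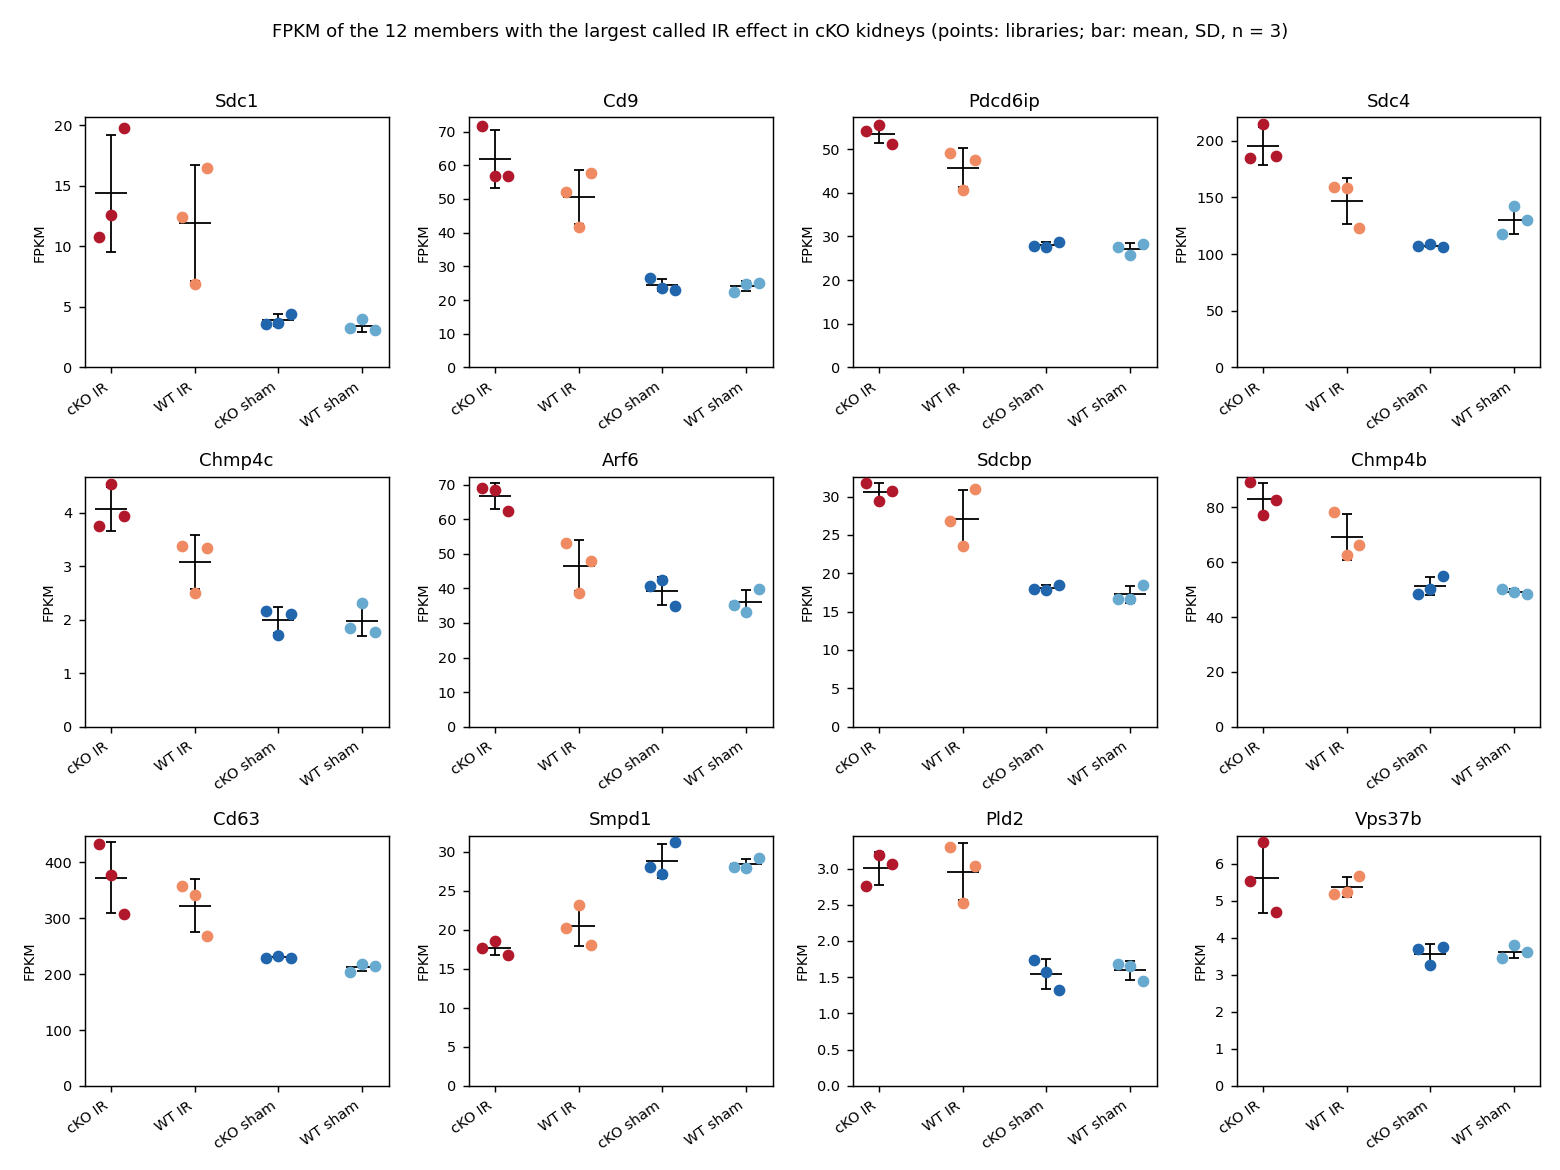
FPKM in every library for the 12 members with the largest called log2 difference between IR and sham in cKO. Points are libraries, black lines the group mean with SD (n = 3 each); in the Pdcd6ip panel the cKO IR points sit at 51.1 to 55.4 FPKM and the cKO sham points at 27.5 to 28.7 FPKM, whereas Smpd1 is lower in IR than in sham.

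Of the 4 tetraspanins, membrane proteins that organise cargo and serve as vesicle markers, 3 rose and 1 fell in cKO, and 2 rose and 1 fell in WT. Cd63 (ENSMUSG00000025351), the tetraspanin of late endosomes and lysosomes, had the highest mean FPKM of all members. Cd63 had 433, 378 and 307 FPKM in cKO IR and 357, 342 and 268 FPKM in WT IR, against 229, 233 and 229 FPKM in cKO sham and 205, 219 and 215 FPKM in WT sham. No IR library fell below any sham library. For Cd63 the IR effect on the log2 scale was 0.68 ± 0.14 in cKO (adjusted p = 0.00202) and 0.59 ± 0.14 in WT (adjusted p = 0.00609). Cd9 (ENSMUSG00000030342) is mainly a tetraspanin of the cell surface. Cd9 stood at 71.7, 56.7 and 56.8 FPKM in cKO IR, against 26.6, 23.7 and 23.1 FPKM in cKO sham. In WT, Cd9 was at 52.2, 41.8 and 57.6 FPKM after IR, against 22.3, 24.8 and 25.2 FPKM after sham. All IR libraries lay above all sham libraries. This gave a log2 difference of 1.29 ± 0.13 in cKO (adjusted p = 2.83e-05) and 1.03 ± 0.13 in WT (adjusted p = 0.000222). Cd81 moved in the other direction. After IR, Cd81 stood at 67.7, 69.6 and 66.4 FPKM in cKO and 68.4, 72.9 and 63.1 FPKM in WT, against 79.3, 81.03 and 91.02 FPKM in cKO sham and 80.4, 79.9 and 80.9 FPKM in WT sham. Every IR library lay below every sham library of its genotype. IR and sham differed by -0.30 ± 0.078 on the log2 scale in cKO (adjusted p = 0.00887) and by -0.24 ± 0.078 in WT (adjusted p = 0.0306). The WT call of Cd81 did not hold with library totals, where its log2 difference was -0.09 (adjusted p = 0.317), and it was lost when any WT library other than WT IR 2 was left out. Cd82, another vesicle tetraspanin, had a log2 difference of 0.27 ± 0.10 (SE) in cKO (adjusted p = 0.0465), with cKO IR 3 at 31.9 FPKM and cKO sham 3 at 32.4 FPKM. The call was lost without each cKO library other than cKO sham 3, with adjusted p-values up to 0.175, and Cd82 overlaps Gm10804 on the opposite strand, whose mean was 25.9 FPKM.

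All 3 members of ESCRT-0, which gathers ubiquitinated cargo on the endosome, rose in both genotypes. Hgs encodes HRS, the subunit that binds the endosomal lipid. Levels of Hgs were 27.8, 27.7 and 27.3 FPKM in cKO IR, against 20.5, 21.6 and 20.5 FPKM in cKO sham. They were 27.6, 24.5 and 25.6 FPKM in WT IR, against 17.5, 17.7 and 19.1 FPKM in WT sham. The IR libraries lay above the sham libraries, and within sham the cKO libraries lay above the WT libraries. The log2 difference between IR and sham was 0.39 ± 0.066 (SE) in cKO (adjusted p = 0.000702) and 0.49 ± 0.066 in WT (adjusted p = 0.00031). Its partners Stam and Stam2 were at lower levels. Stam averaged 5.79 ± 0.277 FPKM in cKO IR and 5.31 ± 0.438 FPKM in WT IR, against 4.65 ± 0.239 FPKM in cKO sham and 4.51 ± 0.143 FPKM in WT sham (SD, n = 3). Its log2 difference was 0.26 ± 0.070 in cKO (adjusted p = 0.00894) and 0.19 ± 0.070 in WT (adjusted p = 0.0456), and the WT call was lost when any WT library other than WT IR 1 was left out. Stam2 averaged 9.49 ± 0.750 FPKM in cKO IR and 8.82 ± 1.23 FPKM in WT IR, against 7.39 ± 0.305 FPKM in cKO sham and 6.44 ± 0.191 FPKM in WT sham (SD, n = 3). It rose by 0.32 ± 0.093 in cKO (adjusted p = 0.0142) and 0.39 ± 0.093 in WT (adjusted p = 0.00647), and the cKO call was lost without cKO IR 2 and without cKO sham 1, with adjusted p-values up to 0.0574.

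In ESCRT-I, the complex that links ESCRT-0 to the budding machinery, 2 of 4 members rose in cKO and 1 in WT. Tsg101, its core subunit and a common vesicle marker, was its most abundant member. Tsg101 had 29.7, 27.6 and 25.4 FPKM in cKO IR and 23.1, 24.3 and 24.3 FPKM in WT IR, against 19.3, 20.9 and 22.8 FPKM in cKO sham and 20.9, 20.7 and 21.5 FPKM in WT sham. In both genotypes the IR libraries lay above the sham libraries. In log2 terms IR minus sham came to 0.38 ± 0.078 in cKO (adjusted p = 0.00224) and to 0.18 ± 0.078 in WT (adjusted p = 0.0921). Vps37b is 1 of the interchangeable VPS37 subunits. Vps37b stood at 5.54, 6.58 and 4.69 FPKM in cKO IR, against 3.70, 3.26 and 3.74 FPKM in cKO sham. In WT, Vps37b was at 5.19, 5.23 and 5.67 FPKM after IR, against 3.45, 3.80 and 3.62 FPKM after sham. Its IR and sham libraries did not overlap. For Vps37b the IR effect on the log2 scale was 0.53 ± 0.099 in cKO (adjusted p = 0.00134) and 0.46 ± 0.099 in WT (adjusted p = 0.00407). Vps37b overlaps Hip1r on the opposite strand (mean 12.2 FPKM). It is among 11 members that overlap a gene with a mean of at least 1 FPKM, 8 of these on the opposite strand, Sdcbp with Nsmaf included. No source used here says whether strand was used in counting, so reads of such pairs cannot be told apart. Vps28 averaged 19.9 ± 2.60 FPKM in cKO IR and 19.8 ± 1.54 FPKM in WT IR, against 20.1 ± 0.778 FPKM in cKO sham and 18.9 ± 1.01 FPKM in WT sham (SD, n = 3) and did not pass in either genotype. Vps37a stayed within 6.67 to 7.81 FPKM in all 12 libraries, with log2 differences of -0.05 ± 0.071 in cKO and -0.02 ± 0.071 in WT (adjusted p = 0.603 and 0.804).

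Neither tested member of ESCRT-II, the bridge to ESCRT-III, passed. Vps36, its ubiquitin-binding subunit, was the more abundant. After IR, Vps36 stood at 20.9, 17.8 and 16.5 FPKM in cKO and 16.9, 17.05 and 17.6 FPKM in WT, against 16.5, 16.5 and 14.7 FPKM in cKO sham and 14.5, 15.4 and 14.8 FPKM in WT sham. The IR and sham libraries overlapped in cKO and did not overlap in WT. This gave a log2 difference of 0.20 ± 0.085 in cKO (adjusted p = 0.0782) and 0.20 ± 0.085 in WT (adjusted p = 0.0874). Without cKO IR 3 Vps36 passed in cKO (adjusted p = 0.0253). Snf8 had log2 differences of 0.03 ± 0.095 in cKO (adjusted p = 0.815) and -0.10 ± 0.095 in WT (adjusted p = 0.446). Vps25, the remaining subunit, lay at 0.161 to 0.787 FPKM, from 4 to 20 reads a library, and overlaps Ramp2 on the same strand.

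ESCRT-III is the filament that narrows and cuts the bud neck, and 4 of its 4 members rose in cKO and 3 of 4 in WT. Not every ESCRT-III gene outside the members followed. Chmp5 averaged 47.7 FPKM in cKO IR and 47.0 FPKM in cKO sham, and 47.9 FPKM in WT IR and 49.2 FPKM in WT sham. Of 15 tested ESCRT genes and partners outside the members, 7 rose (46.7%) and 2 fell (13.3%) in cKO. In WT 4 of them rose (26.7%) and 2 fell (13.3%), where 22.6% of all tested genes rose and 19.5% fell. Chmp4b is the main filament subunit. Levels of Chmp4b were 89.1, 77.2 and 82.9 FPKM in cKO IR, against 48.5, 50.3 and 55.1 FPKM in cKO sham. They were 78.5, 62.6 and 66.3 FPKM in WT IR, against 50.2, 49.1 and 48.4 FPKM in WT sham. IR and sham libraries did not overlap, and WT IR 2 was the lowest of the IR libraries. IR and sham differed by 0.68 ± 0.095 on the log2 scale in cKO (adjusted p = 0.000203) and by 0.47 ± 0.095 in WT (adjusted p = 0.00277). Chmp4c, its paralog with a part in cell division, was far less abundant. Chmp4c overlaps Snx16 on the opposite strand (mean 3.15 FPKM), and reads of this pair too cannot be told apart. Chmp4c had 3.75, 4.54 and 3.95 FPKM in cKO IR and 3.39, 2.49 and 3.34 FPKM in WT IR, against 2.16, 1.72 and 2.10 FPKM in cKO sham and 1.85, 2.32 and 1.78 FPKM in WT sham. All IR libraries were above all sham libraries, and all cKO IR libraries above all WT IR libraries. The log2 difference between IR and sham was 0.76 ± 0.12 (SE) in cKO (adjusted p = 0.000374) and 0.45 ± 0.12 in WT (adjusted p = 0.011). Chmp2a, which brings VPS4 to the filament, had the highest mean FPKM of the complex. Chmp2a stood at 84.99, 77.4 and 71.5 FPKM in cKO IR, against 49.5, 57.8 and 55.96 FPKM in cKO sham. In WT, Chmp2a was at 78.6, 71.2 and 64.1 FPKM after IR, against 46.9, 50.6 and 52.97 FPKM after sham. The IR libraries lay above the sham libraries throughout. In log2 terms IR minus sham came to 0.51 ± 0.10 in cKO (adjusted p = 0.0018) and to 0.50 ± 0.10 in WT (adjusted p = 0.00303). Chmp6, which starts the filament, averaged 24.4 ± 4.59 FPKM in cKO IR and 21.4 ± 2.13 FPKM in WT IR, against 18.4 ± 1.22 FPKM in cKO sham and 20.04 ± 1.70 FPKM in WT sham (SD, n = 3). It rose by 0.38 ± 0.13 in cKO (adjusted p = 0.03) and had a log2 difference of 0.09 ± 0.13 in WT (adjusted p = 0.596). That call was lost without each cKO library other than cKO IR 3, with adjusted p-values up to 0.109.

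None of the 3 genes of the ATPase step that takes the filament apart passed in either genotype. Vps4a and Vps4b are the ATPases and Vta1 their cofactor. After IR, Vps4a stood at 22.4, 24.8 and 23.7 FPKM in cKO and 21.1, 22.6 and 19.97 FPKM in WT, against 20.9, 22.04 and 21.6 FPKM in cKO sham and 21.99, 21.2 and 21.4 FPKM in WT sham. In cKO the IR libraries lay above the sham libraries, and in WT they overlapped. For Vps4a the IR effect on the log2 scale was 0.13 ± 0.066 in cKO (adjusted p = 0.126) and -0.02 ± 0.066 in WT (adjusted p = 0.81). Levels of Vps4b were 12.3, 12.5 and 10.8 FPKM in cKO IR, against 11.1, 10.3 and 10.4 FPKM in cKO sham. They were 10.8, 10.4 and 10.2 FPKM in WT IR, against 10.4, 11.4 and 10.96 FPKM in WT sham. IR and sham overlapped in both genotypes, and all cKO IR libraries lay above the WT IR libraries. This gave a log2 difference of 0.15 ± 0.069 in cKO (adjusted p = 0.0926) and -0.06 ± 0.069 in WT (adjusted p = 0.532). Vta1 averaged 10.2 ± 1.87 FPKM in cKO IR and 9.46 ± 0.894 FPKM in WT IR, against 8.25 ± 0.192 FPKM in cKO sham and 7.98 ± 0.518 FPKM in WT sham (SD, n = 3), with adjusted p-values of 0.0642 in cKO and 0.138 in WT. With library totals all 3 rose in cKO and Vta1 rose in WT. Without cKO IR 3, Vps4b and Vta1 passed in cKO, with an adjusted p of 0.0263 for Vps4b and 0.0185 for Vta1.

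**Figure D3:**
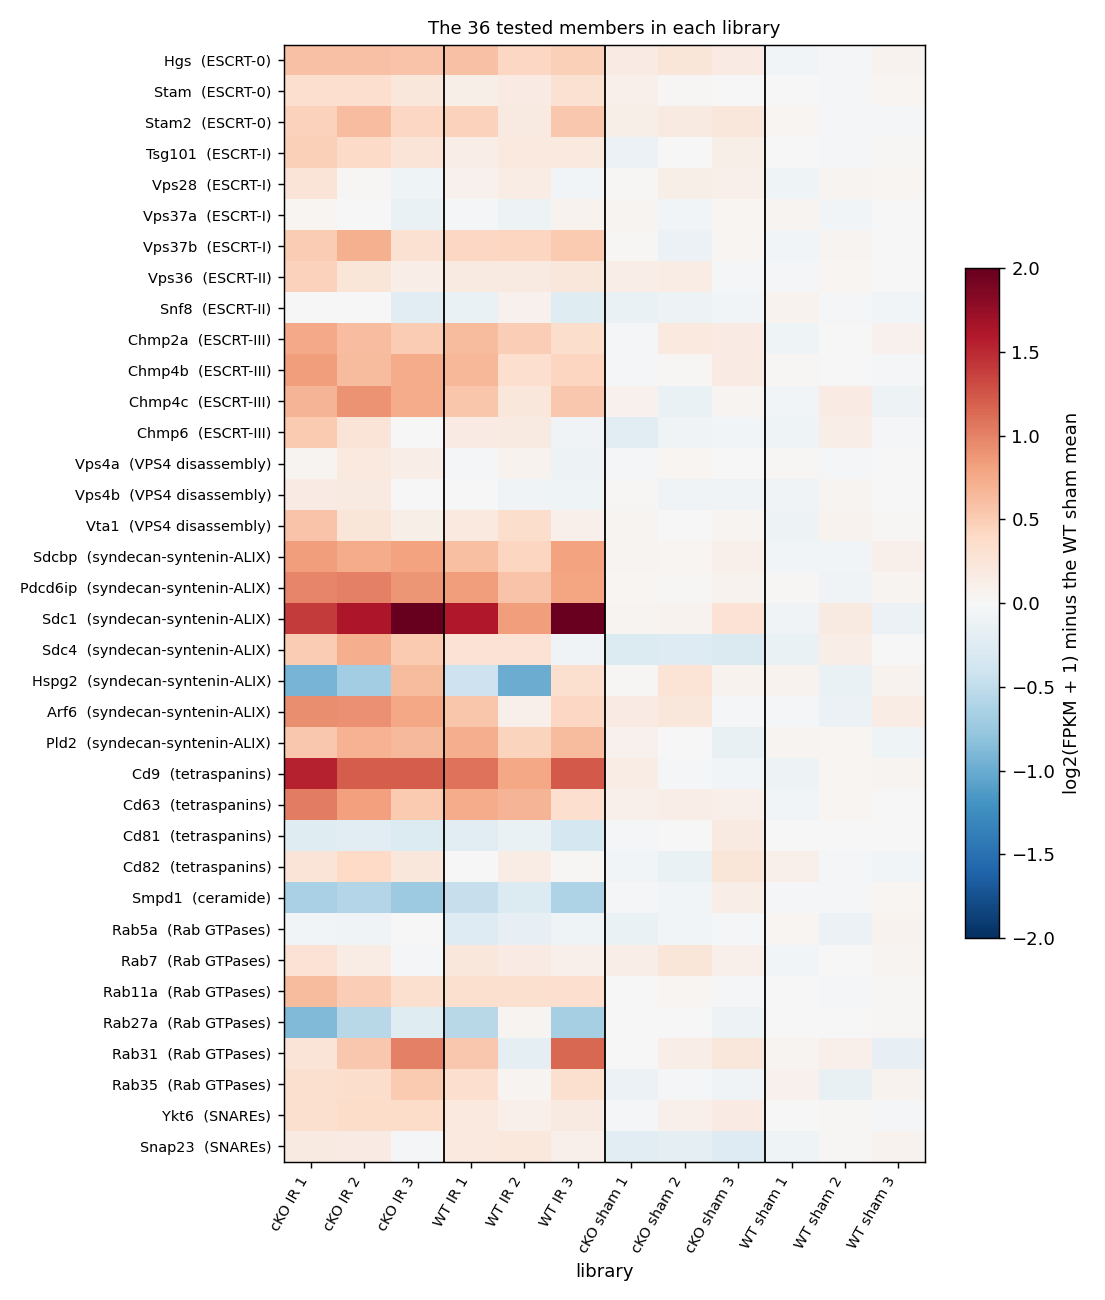
Log2(FPKM + 1) of the 36 tested members in each library, minus the mean of the 3 WT sham libraries, with libraries in columns (cKO IR, WT IR, cKO sham, WT sham) and members in rows by step. Red is higher and blue lower than the WT sham mean; Sdc1, Cd9 and Pdcd6ip are red in all IR libraries and Smpd1 is blue in all of them, with WT IR 2 paler than the other IR libraries for several members.

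Smpd1, the only tested gene of the ceramide step, fell. It encodes acid sphingomyelinase, the lysosomal enzyme that makes ceramide from sphingomyelin. Smpd1 had 17.6, 18.6 and 16.7 FPKM in cKO IR and 20.3, 23.2 and 18.1 FPKM in WT IR, against 27.99, 27.2 and 31.3 FPKM in cKO sham and 28.01, 27.9 and 29.2 FPKM in WT sham. Every IR library lay below every sham library. IR and sham differed by -0.67 ± 0.093 on the log2 scale in cKO (adjusted p = 0.000187) and by -0.46 ± 0.093 in WT (adjusted p = 0.00294). Smpd3, the neutral sphingomyelinase tied to budding in cultured cells, lay at 0.0262 to 0.161 FPKM, from 2 to 13 reads a library, and was not tested.

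Among the 6 tested Rab GTPases, 2 rose and 1 fell in cKO, and 1 rose in WT. Rab7, which marks late endosomes on the way to the lysosome, was the most abundant. Rab7 stood at 154, 140 and 123 FPKM in cKO IR, against 139, 150 and 136 FPKM in cKO sham. In WT, Rab7 was at 147, 141 and 135 FPKM after IR, against 122, 126 and 131 FPKM after sham. The cKO ranges overlapped, and in WT the IR libraries lay above the sham libraries. The log2 difference between IR and sham was -0.04 ± 0.092 (SE) in cKO (adjusted p = 0.772) and 0.16 ± 0.092 in WT (adjusted p = 0.19). Rab11a, of recycling endosomes, averaged 38.4 ± 4.30 FPKM in cKO IR and 34.2 ± 0.188 FPKM in WT IR, against 27.03 ± 0.776 FPKM in cKO sham and 27.1 ± 0.690 FPKM in WT sham (SD, n = 3). It rose by 0.49 ± 0.079 in cKO (adjusted p = 0.000547) and 0.32 ± 0.079 in WT (adjusted p = 0.00771). Rab35, another Rab of recycling, averaged 22.4 ± 1.74 FPKM in cKO IR and 20.01 ± 2.18 FPKM in WT IR, against 15.9 ± 0.515 FPKM in cKO sham and 16.8 ± 1.51 FPKM in WT sham (SD, n = 3). It rose in cKO by 0.47 ± 0.096 (adjusted p = 0.00218), and its WT difference was 0.24 ± 0.096 (adjusted p = 0.066), which passed without WT IR 2 (adjusted p = 0.0128). Rab5a, of early endosomes, averaged 12.8 ± 0.382 FPKM in cKO IR and 11.7 ± 0.773 FPKM in WT IR, against 12.6 ± 0.520 FPKM in cKO sham and 13.3 ± 0.952 FPKM in WT sham (SD, n = 3). Its log2 differences were 0.02 ± 0.072 in cKO (adjusted p = 0.834) and -0.17 ± 0.072 in WT (adjusted p = 0.0871), the WT value passing without WT sham 2 (adjusted p = 0.0453).

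The Rab27 proteins dock multivesicular bodies at the plasma membrane. After IR, Rab27a stood at 2.29, 3.13 and 4.09 FPKM in cKO and 3.11, 5.29 and 2.79 FPKM in WT, against 5.01, 5.04 and 4.65 FPKM in cKO sham and 4.98, 4.996 and 5.13 FPKM in WT sham. The cKO IR libraries lay below the cKO sham libraries, and WT IR 2 lay above all sham libraries. In log2 terms IR minus sham came to -0.52 ± 0.19 in cKO (adjusted p = 0.0377) and to -0.39 ± 0.19 in WT (adjusted p = 0.12). The cKO call was lost without cKO IR 1, cKO IR 2 or any cKO sham library, with adjusted p-values up to 0.141, and with library totals (adjusted p = 0.051). Without WT IR 2, Rab27a fell in WT too (adjusted p = 0.00694). Rab27b lay at 0.241 to 0.530 FPKM, from 39 to 83 reads a library, and was not tested. Rab31, in human cells a Rab of a budding route that needs no ESCRT, had 5.61, 7.03 and 10.1 FPKM in cKO IR and 7.002, 3.79 and 11.3 FPKM in WT IR, against 4.52, 5.02 and 5.43 FPKM in cKO sham and 4.74, 4.88 and 3.94 FPKM in WT sham. It had log2 differences of 0.49 ± 0.29 in cKO (adjusted p = 0.181) and 0.50 ± 0.29 in WT (adjusted p = 0.188), and it passed in WT without WT IR 2 (adjusted p = 0.0105).

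Both tested SNAREs rose in cKO. Ykt6 is a lipid-anchored SNARE. Levels of Ykt6 were 40.9, 42.4 and 42.2 FPKM in cKO IR, against 31.8, 35.3 and 36.9 FPKM in cKO sham. They were 37.7, 35.3 and 36.9 FPKM in WT IR, against 32.8, 33.03 and 32.2 FPKM in WT sham. All cKO IR libraries lay above all others, and the WT IR libraries above the WT sham libraries. For Ykt6 the IR effect on the log2 scale was 0.27 ± 0.068 in cKO (adjusted p = 0.00733) and 0.16 ± 0.068 in WT (adjusted p = 0.0796). Snap23 is a SNARE of the plasma membrane. Snap23 had 23.7, 23.5 and 20.5 FPKM in cKO IR and 24.1, 24.3 and 22.5 FPKM in WT IR, against 17.8, 18.1 and 17.3 FPKM in cKO sham and 19.5, 21.2 and 21.9 FPKM in WT sham. Within sham the cKO libraries lay below the WT libraries, and after IR the genotypes overlapped. In each genotype the IR libraries lay above the sham libraries. This gave a log2 difference of 0.33 ± 0.075 in cKO (adjusted p = 0.00418) and 0.17 ± 0.075 in WT (adjusted p = 0.0884).

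The 3 members that varied most within a group did so in IR kidneys. The median ratio of the highest to the lowest library over the members was 1.16 in cKO IR and 1.21 in WT IR, against 1.10 in both sham groups. It reached 3.40 for Hspg2 in cKO IR and 2.97 for Rab31 in WT IR. Among members that rose, WT IR 2 was the lowest WT IR library for 11 of 15, and cKO IR 3 the lowest cKO IR library for 13 of 22. Hspg2, Rab31 and Sdc1 were highest in cKO IR 3 among cKO IR libraries and in WT IR 3 among WT IR libraries. The same 2 libraries had the highest sums of fibroblast and mural markers, 265 FPKM in cKO IR 3 and 206 FPKM in WT IR 3, against 59.6 to 93.9 FPKM in the other IR libraries, 61.8 to 84.8 FPKM in cKO sham and 47.9 to 55.1 FPKM in WT sham. Endothelial marker sums were 172 FPKM in cKO IR 3 and 144 FPKM in WT IR 3, against 41.1 to 97.4 FPKM in the other IR libraries, 122 to 142 FPKM in cKO sham and 97.9 to 140 FPKM in WT sham. Of the 7 fibroblast and mural markers, 1 rose in cKO and 2 in WT with IR and 1 fell in each, and of the 7 endothelial markers 1 fell in each. Macrophage, neutrophil, platelet, podocyte, and T and NK cell marker sums were also highest in these libraries among the IR libraries of their genotype. Podocyte sums were 93.5 FPKM in cKO IR 3 and 91.9 FPKM in WT IR 3, against 65.6 to 90.0 FPKM in the other IR libraries. T and NK cell sums, from genes too low to be tested, were 0.983 FPKM in cKO IR 3 and 2.45 FPKM in WT IR 3. The B and plasma cell sum was highest in cKO IR 3 (7.93 FPKM) but in WT IR 1 (9.63 FPKM), above WT IR 3 (7.18 FPKM). In sham that sum was 2.06 to 3.82 FPKM in cKO and 17.0 to 28.2 FPKM in WT. Macrophage sums were 89.7 FPKM in cKO IR 3 and 98.7 FPKM in WT IR 3, against 35.6 to 79.5 FPKM in the other IR libraries. Neutrophil sums were 26.1 FPKM in cKO IR 3 and 52.0 FPKM in WT IR 3, against 10.8 to 19.5 FPKM in the other IR libraries. Platelet sums were 5.47 FPKM in cKO IR 3 and 6.02 FPKM in WT IR 3, against 2.73 to 3.87 FPKM in the other IR libraries. No marker of these lists was at 0 in every library, and their part in the members' values was not tested.

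**Figure D4:**
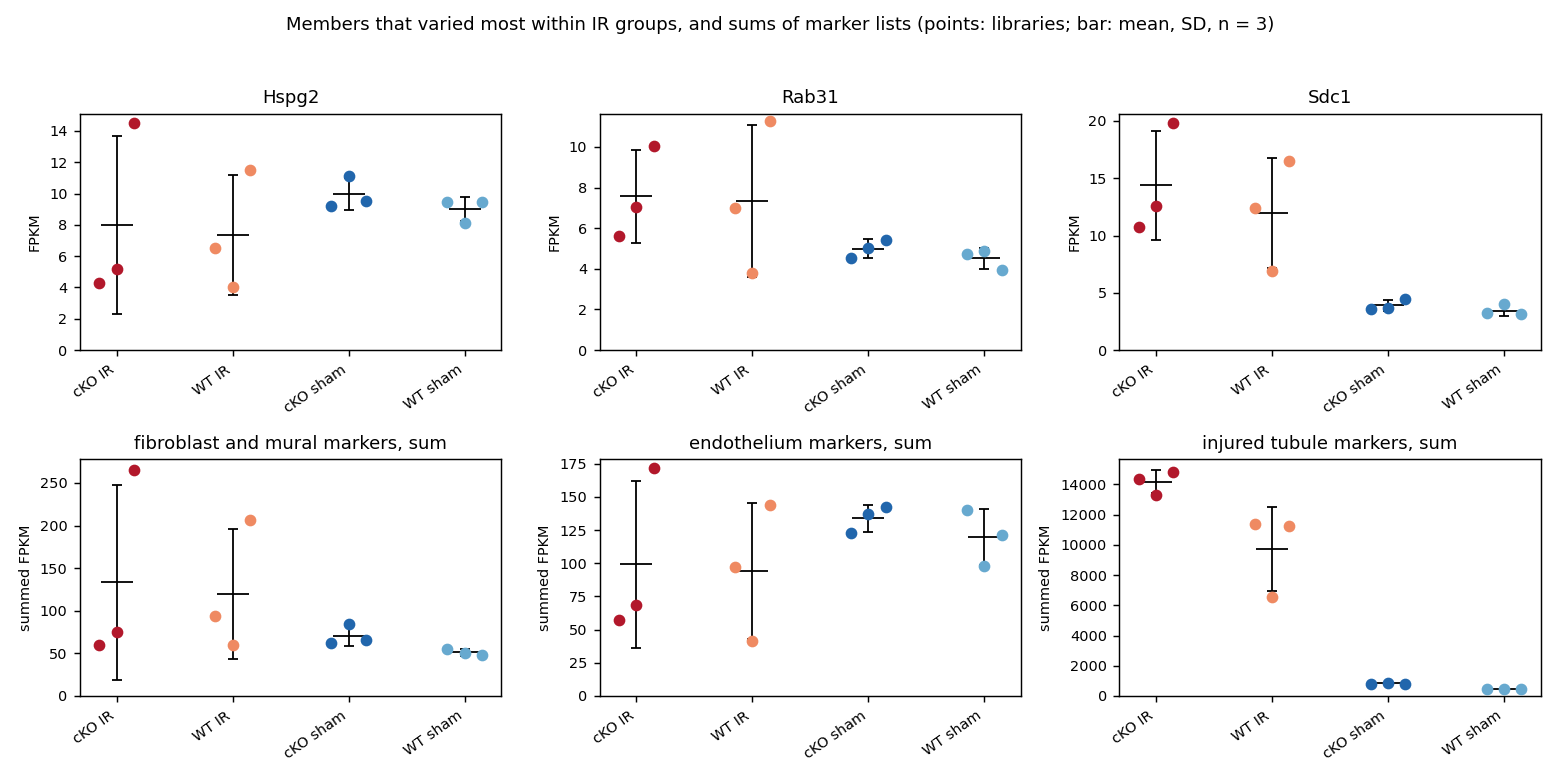
Top, FPKM of Hspg2, Rab31 and Sdc1 in each library; bottom, summed FPKM of the fibroblast and mural, endothelium and injured tubule marker lists. Points are libraries, black lines the group mean with SD (n = 3 each); cKO IR 3 and WT IR 3 are the high points for Hspg2 (14.5 and 11.5 FPKM) and for the fibroblast and mural sum (265 and 206 FPKM).

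No member passed between cKO and WT. In cKO IR against WT IR, 0 of 36 members passed by limma, and 11 had an unadjusted p under 0.05. The share of all tested genes called was 0%, with 1926 at an unadjusted p under 0.05. Krt20, the deleted gene, was among the tested genes and so was not called either. The differences of members leaned to higher in cKO IR, positive for 30 of 36 members with a median of 0.13. Over all tested genes 7268 of 12868 were positive, with a median of 0.03. That median over all tested genes was -0.01 with library totals. WT IR 2, the library that stood apart, is in this comparison. Smallest in p were Arf6, Sdc4 and Pdcd6ip, whose cKO IR libraries all lay above the WT IR libraries. For Arf6 the log2 difference was 0.52 ± 0.12 (adjusted p = 0.163), for Sdc4 0.42 ± 0.12 (adjusted p = 0.178) and for Pdcd6ip 0.23 ± 0.080 (adjusted p = 0.241). Leaving out each library in turn gave no call among the members.

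In cKO sham against WT sham, 0 of 36 members passed and 3 had an unadjusted p under 0.05, against 1472 of all 12868 tested genes, where 0.847% of all tested genes rose and 0.256% fell. Those 3 were Hgs, at 0.19 ± 0.066 (adjusted p = 0.266), Snap23, at -0.22 ± 0.075 (adjusted p = 0.268), and Sdc4, at -0.27 ± 0.12 (adjusted p = 0.398). The median over the members was 0.03. In these libraries Sdc4 was thus lower in cKO sham and higher in cKO IR, with no overlap in either case and no call in either. For the difference between the genotypes in the IR effect, 0 of 36 members passed and 2 had an unadjusted p under 0.05, against 1878 of all 12868 tested genes, where 0.878% of all tested genes were called, 0.295% higher and 0.583% lower. Sdc4 had the largest value, 0.69 ± 0.16 (adjusted p = 0.0838), which leaving out a library moved between 0.57 and 0.75, with adjusted p-values of 0.0695 to 0.193. Next in order of p were Arf6, at 0.40 ± 0.18 (adjusted p = 0.327), and Vps4b, at 0.21 ± 0.098 (adjusted p = 0.36).

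**Figure D5:**
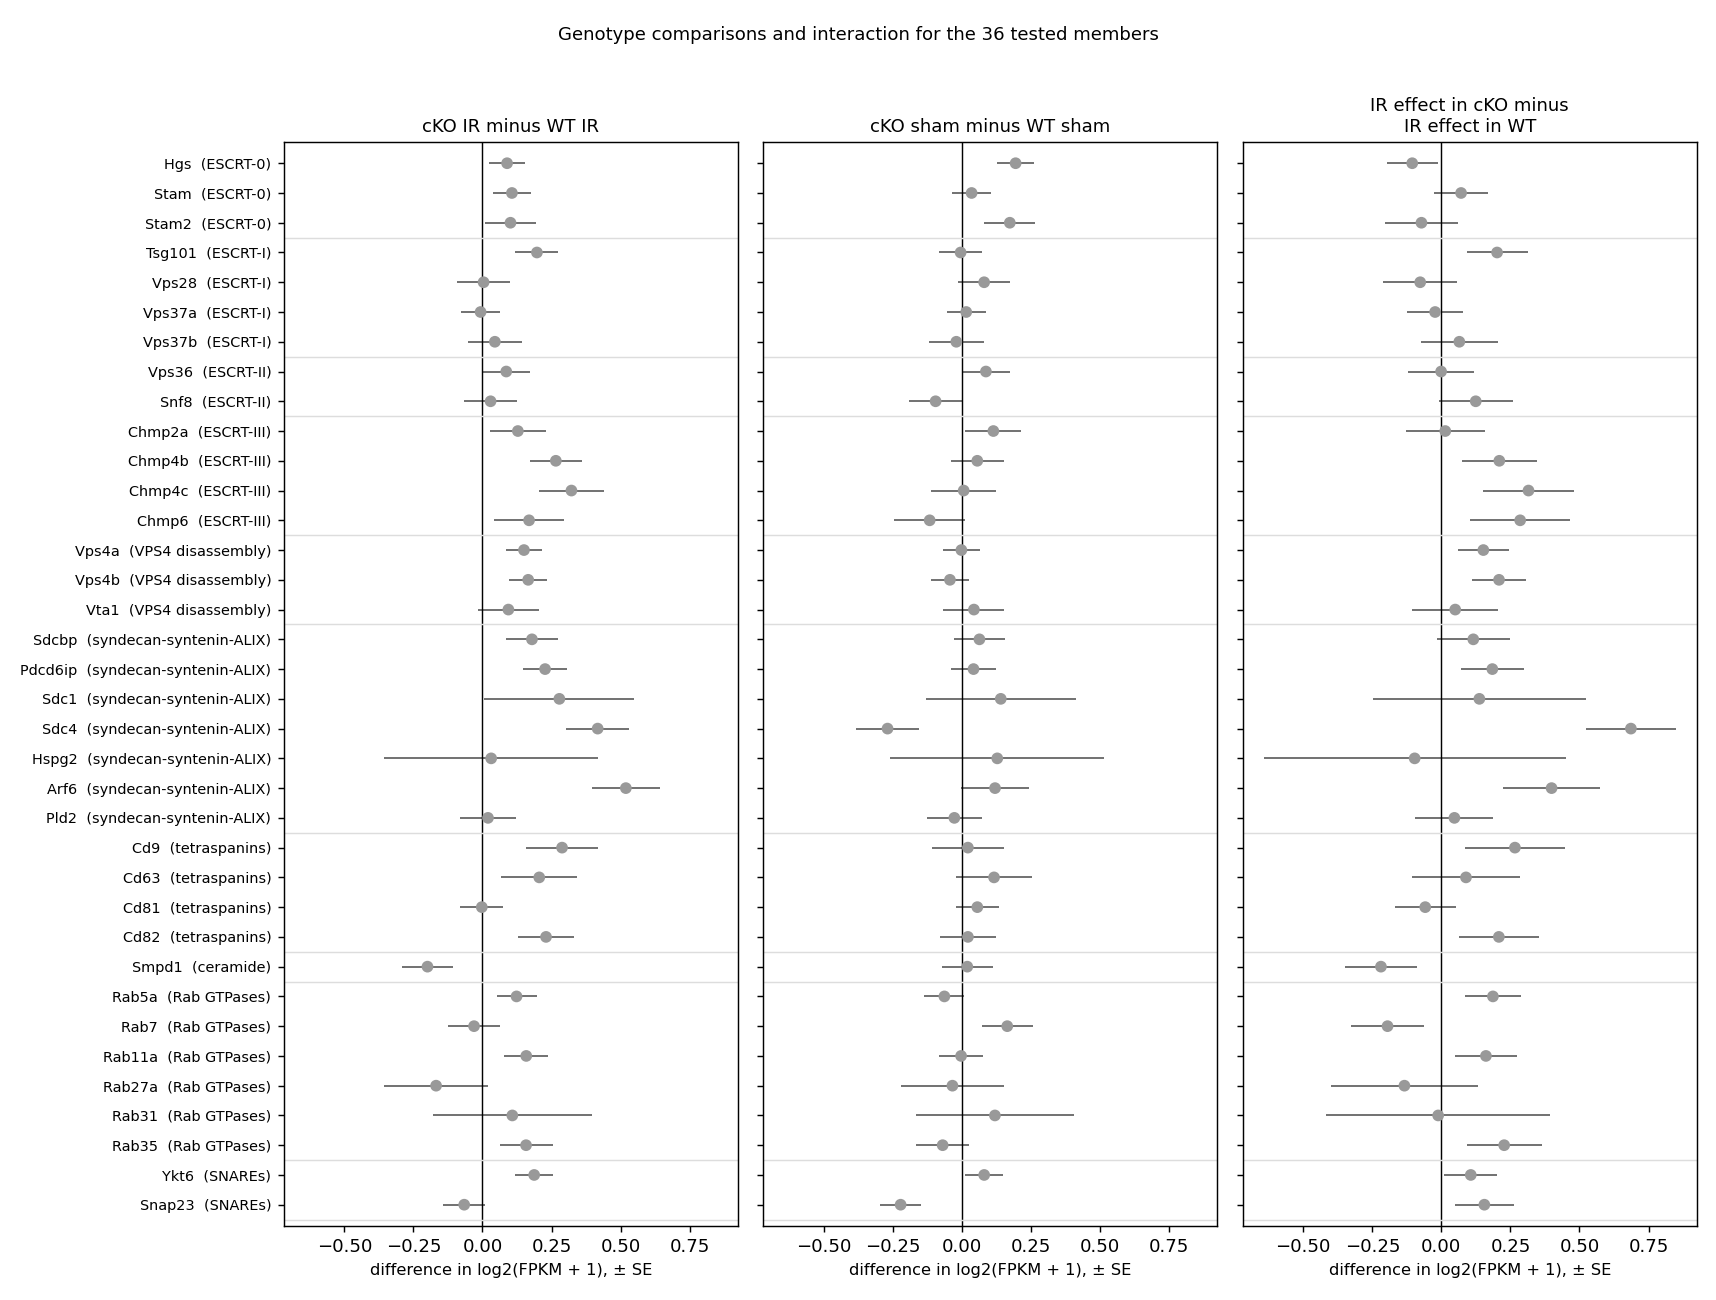
Log2 difference between cKO IR and WT IR (left), between cKO sham and WT sham (middle) and between the genotypes in the IR effect (right) for the 36 tested members. Points are limma estimates on log2(FPKM + 1) and bars their SE; every point is grey because none passed, and Sdc4 sits at 0.42, -0.27 and 0.69.

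The other genes of the pathway, 46 further ESCRT, syndecan, tetraspanin, sphingolipid, Rab and SNARE genes of which 42 were tested, were fitted with the rest. In cKO 21 rose (50%) and 7 fell (16.7%) with IR, where 27.8% of all tested genes rose and 23.1% fell. In WT 14 rose (33.3%) and 7 fell (16.7%), where 22.6% of all tested genes rose and 19.5% fell. The surface tetraspanin Cd151 had the largest log2 difference among them in cKO. Cd151 stood at 113, 99.4 and 110 FPKM in cKO IR, against 34.7, 34.6 and 39.9 FPKM in cKO sham. In WT, Cd151 was at 88.6, 62.7 and 79.3 FPKM after IR, against 33.02, 35.9 and 35.4 FPKM after sham. Its IR libraries lay above all sham libraries, and cKO IR above WT IR (adjusted p = 0.17 for that difference). IR and sham differed by 1.53 ± 0.12 on the log2 scale in cKO (adjusted p = 7.9e-06) and by 1.11 ± 0.12 in WT (adjusted p = 9.4e-05). After IR, Ptpn23 stood at 32.2, 33.4 and 29.8 FPKM in cKO and 27.4, 17.3 and 22.3 FPKM in WT, against 10.8, 11.7 and 11.3 FPKM in cKO sham and 11.2, 10.6 and 10.4 FPKM in WT sham. Its IR and sham libraries did not overlap. Ptpn23, an ALIX relative that works with ESCRT, rose by 1.42 ± 0.13 in cKO (adjusted p = 1.88e-05) and 0.97 ± 0.13 in WT (adjusted p = 0.000301). Levels of Ralb were 28.9, 28.6 and 22.7 FPKM in cKO IR, against 11.6, 12.6 and 11.7 FPKM in cKO sham. They were 23.5, 19.2 and 24.5 FPKM in WT IR, against 9.82, 10.9 and 10.8 FPKM in WT sham. For Ralb too, IR and sham did not overlap. Ralb, a GTPase of exocytosis, rose by 1.09 ± 0.11 in cKO (adjusted p = 3.17e-05) and 1.02 ± 0.11 in WT (adjusted p = 9.97e-05). Chmp2b had 58.6, 47.8 and 43.2 FPKM in cKO IR and 42.03, 41.5 and 43.6 FPKM in WT IR, against 23.7, 22.6 and 22.6 FPKM in cKO sham and 21.8, 23.8 and 21.4 FPKM in WT sham. All Chmp2b values after IR exceeded those after sham. Chmp2b, the paralog of Chmp2a, rose by 1.08 ± 0.099 in cKO (adjusted p = 1.99e-05) and 0.89 ± 0.099 in WT (adjusted p = 0.000112).

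Tspan4, a tetraspanin known from migrating cells, rose with IR and also differed between the sham groups. Tspan4 stood at 43.96, 50.8 and 47.7 FPKM in cKO IR, against 26.5, 26.1 and 25.6 FPKM in cKO sham. In WT, Tspan4 was at 48.8, 33.5 and 37.9 FPKM after IR, against 14.5, 14.2 and 19.1 FPKM after sham. Tspan4 was higher in every cKO sham library than in every WT sham library and rose with IR in both genotypes. It was the only gene of the 42 to pass between the sham groups, at 0.69 ± 0.14 (adjusted p = 0.0464). That call was lost with no filter on low values (adjusted p = 0.0872), with no variance trend (adjusted p = 0.0532) and without each sham library other than WT sham 3 (adjusted p up to 0.198). Vps37d, a VPS37 paralog, fell in WT alone by call. After IR, Vps37d stood at 4.09, 3.26 and 3.15 FPKM in cKO and 2.55, 2.90 and 1.74 FPKM in WT, against 2.48, 2.94 and 2.98 FPKM in cKO sham and 5.71, 8.70 and 4.64 FPKM in WT sham. WT sham libraries were the highest, cKO IR libraries came next, and WT IR and cKO sham overlapped. The log2 difference between IR and sham was 0.24 ± 0.19 (SE) in cKO (adjusted p = 0.315) and -1.09 ± 0.19 in WT (adjusted p = 0.00134). Its difference between the genotypes in the IR effect was 1.33 ± 0.27 (adjusted p = 0.0532), which passed without WT sham 3 (adjusted p = 0.0441) and without WT IR 2.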

How the data were processed

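The 12 libraries were grouped from their titles and descriptions, 3 to a group. The authors deposited 1 table of FPKM per gene with the length of each gene model in bases, a number of another kind, and 0 further columns of per-library values were left unused. Reads were aligned with HISAT2 2.2.1, and the builds mm8 and mm9 are named, per the submitters' processing notes. For the counting program, its strand setting and the annotation, the sources used here give nothing. FPKM times gene length was a whole multiple of a step in each library, within 5.63e-08 of a whole number, which gave the reads behind the deposited values. The library size in the deposited FPKM was 0.933 to 1.126 times each sum of reads. This factor differed by surgery, at 1.001 to 1.126 in the IR libraries and 0.933 to 0.990 in the sham libraries. Reads are not independent molecules, and their number sets the precision of low values.

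A mean of 1 FPKM or more over the libraries was required, and the 12868 genes that had it were fitted together on log2(FPKM + 1) in limma 3.58.1 under R 4.3.3, with 1 mean per group and eBayes with trend (residual df 8, prior df 2.59). Fold changes on this scale understate those of low genes. The 5 comparisons were IR against sham in each genotype, cKO against WT in each surgery, and the interaction. Tests were two-sided, with Benjamini-Hochberg adjustment over all 12868 genes and a threshold of 0.05. The fit was tested on simulated data. Krt20 and Prdx2 were compared by exact permutation tests.

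The members and lists were chosen with earlier results of these data known. Every member is named. Values per library are given for members called with a log2 difference of at least 0.5 (at most 12 a comparison), for the 3 smallest p-values where a comparison called none, for the most abundant member of each step, and for 6 other pathway genes with the largest called IR differences. Hspg2, Rab27a, Rab31 and Cd81 are given per library beyond that rule, chosen after their values were seen. Alternatives were another pseudocount (0.1), no filter and a filter at 5 FPKM, library totals, medians of ratios, no variance trend, only the groups compared, a replicate block, and leaving out each library. Promoter windows came from RefSeq, build GRCm38.p6; the build of the deposited gene coordinates was not established and none are printed.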

Additional observations from a re-analysis of the deposited data

How the results depend on the processing

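None of the called log2 differences changed sign under any alternative run. In WT, library totals gave 24 members higher and 1 lower, against 15 and 2 as deposited. Members lower in WT numbered 1 also with the replicate block and with only the groups compared. Leaving out 1 library at a time gave 13 to 16 members higher and 1 to 3 lower in WT, and 19 to 24 higher and 2 to 4 lower in cKO. In cKO the other alternatives gave 19 to 26 higher and 2 to 3 lower. The counts of 0 between the genotypes and for the interaction held under every alternative run. Whether replicate numbers shared by the groups pair the libraries cannot be decided from 3 libraries a group. Deviations of same-numbered libraries correlated at 0.063, -0.003 and 0.153 between cKO IR and cKO sham and at 0.039, 0.126 and -0.07 between WT IR and WT sham. They correlated at -0.014, 0.153 and 0.401 between cKO IR and WT IR and at -0.122, -0.083 and -0.123 between cKO sham and WT sham, and not every library correlated best with its own number. With the replicate block 24 members were called in cKO and 14 in WT, against 25 and 17 with no block. It lost Cd82 in cKO and Arf6, Cd81 and Stam in WT. Under no filter Cd82, Chmp6 and Rab27a lost their cKO call and Arf6 and Stam their WT call; more genes enter the adjustment there. A filter at 5 FPKM leaves out Chmp4c, Pld2, Rab27a and Vps37b. Depth limits the precision of members with few reads, such as Smpd3 with 2 to 13 reads a library.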
